A study of Mus musculus with 9 samples.

Results

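Colons of mice given vanillin during a course of colitis and carcinogen were compared here with colons of mice on the same course without vanillin. The comparison covers all 26423 probes of the arrays and uses 6 of the 9 arrays of the series, 3 titled Vanillin and 3 titled Sham, chosen by those titles. All mice were female BALB/c, and RNA came from the colon. Both groups had azoxymethane (AOM), a colon carcinogen, at 12.5 mg/kg into the peritoneum on day 1. Drinking water with 2.5% dextran sodium sulfate (DSS), a polymer that injures the gut lining, began on day 8 for 5 days, water alone came next for 16 days, and 3 additional cycles followed. The Vanillin group also had 100 mg/kg of vanillin by mouth over 91 days, and the Sham group had none. The Mock arrays are from untreated mice and are given as levels. They also entered the fit, and so bear on every SE and adjusted p, and their means served to choose some of the genes named. The labels give neither ages nor whether the arrays of a group stem from different animals. The p-values here then measure the spread between arrays alone, and that spread may be technical.

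Vanillin is a phenolic aldehyde, the main aroma compound of vanilla, and belongs to the vanilloids, which act on some ion channels of the TRP family. The title of the series names the proteasome, nuclear factor-κB (NF-κB) and mitogen-activated protein (MAP) kinases. The proteasome degrades ubiquitin-tagged proteins, among them the inhibitors that hold NF-κB in the cytoplasm. The lists of these pathways follow the title, so their direction is no independent evidence. In the AOM/DSS model, repeated rounds of mucosal injury and repair, with neutrophil and macrophage cytokines, interferon signals and Wnt-driven growth of the crypts, precede tumours of the distal colon.

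Of the 26423 probes, 12659 (47.9%) were called at an adjusted p under 0.05. Higher values with vanillin were called for 4141 (15.7%) and lower values for 8518 (32.2%). Larger changes went the other way: 1005 probes (3.8%) rose and 177 (0.67%) fell by at least 1 on the log2 scale. For 56.3% of probes every Vanillin value lay on the same side of every Sham value. Of the 17742 named genes, each given by its brightest probe, 17.4% were called higher and 35.1% lower, with a median difference of -0.105. Every difference below is Vanillin minus Sham on the log2(intensity + 16) scale, with its standard error (SE) and the adjusted p of the fit with limma over all probes. The counts of gene lists are to be read against these shares, since many calls are made in any list.

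**Figure D1:**
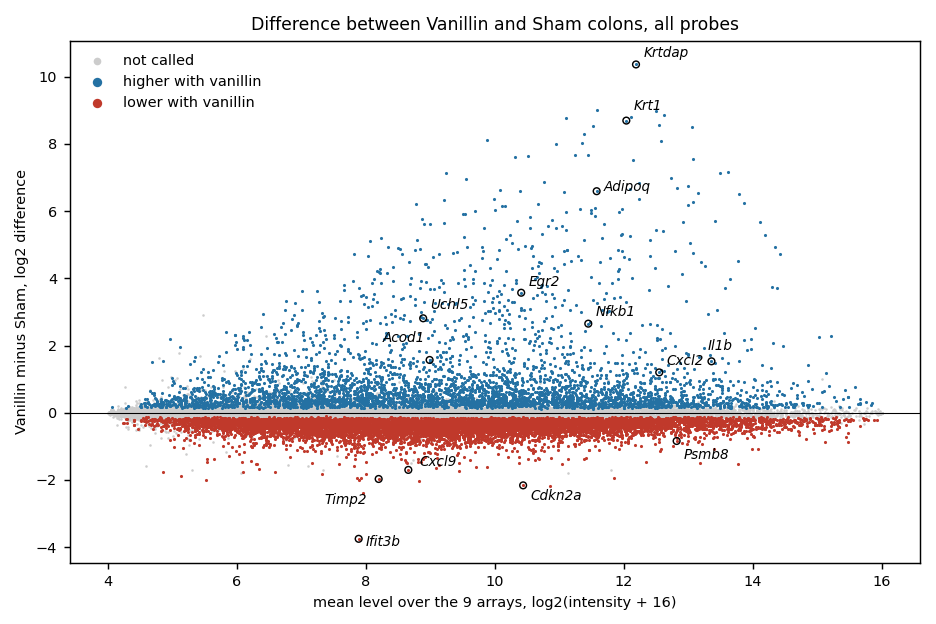
Difference between the Vanillin and Sham groups (vertical axis, log2) against the mean level over the 9 arrays (horizontal axis, log2 of intensity + 16), 1 point per probe. Blue and red points are the 4141 probes called higher and the 8518 called lower, grey points were not called, and circled probes are named genes. Rises reach 10.36 (Krtdap), while the largest fall is -3.75 (Ifit3b).

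All 9 arrays had medians between 319.6 and 320.1 and maxima near 65510, so the deposited values force an equal distribution on every array. The median difference over all probes was -0.094. When each array was centred instead on its median over ribosomal protein and oxidative phosphorylation probes, all differences moved up by 0.30 and the median became 0.203, with 11167 probes called higher and 1761 lower. The split of calls therefore depends on the scaling, and lists are given below with their counts after this centring ("after centring"). Those counts are to be read against the 11167 and 1761 of all 26423 probes, since the shift alone turns many calls upward in any list. Members of a list that are few, or that moved against the rest of their list, are named as well, after their values were seen.

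Genes of skin, fat and skeletal muscle gave the largest differences in the data. Of 20 measured markers of squamous epithelium, the layered lining of skin and anal canal, 19 rose with a median of 4.77, and 19 were called higher after centring. The summed intensity of the 20 markers was 858054 to 864286 in the Mock arrays, 36824 to 37661 in the Sham arrays and 471559 to 522173 in the Vanillin arrays. Krt1, a keratin of the upper epidermis, read 46, 43.8 and 41.9 in the Sham arrays and 26012, 23878 and 24193 in the Vanillin arrays. Its difference was 8.69 (SE 0.053, adjusted p = 9e-13), with a Mock level of 50447. Mock level here means the mean of the 3 Mock arrays, taken on the log2 scale and turned back into intensity. Trp63, the transcription factor of squamous basal cells, rose by 5.72 on its brightest probe, from 102, 94.5 and 92 to 5864, 5886 and 5952, and by 1.35 and 4.88 on its others. The marker that was not called was Krt14 (0.99), with Vanillin values of 64969, 63608 and 11506; without Vanillin replicate 3 it was called (1.82, adjusted p = 6.6e-08).

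The 15 largest increases were mostly genes of skin and its glands. Krtdap, a secreted protein of differentiating keratinocytes, led them with 10.36 (SE 0.54), from Sham values of 0.0, 87.6 and 12.8 to Vanillin values of 45889, 48012 and 48893. Hrnr (9.02), Sprr4 (8.29) and Lce1a2 (7.68) encode parts of the cornified envelope, the tough shell of dead skin cells. Klk7 (8.79) and Klk10 (7.65) encode kallikrein proteases of the skin surface, and Cst6 (8.87) encodes a cystatin that inhibits skin proteases, although its other probe gave -0.04. Defb6 (8.97) is a beta-defensin, and Dsg1a (8.08) holds epidermal cells together. Krt77 (8.11) and Krt25 (7.61) are keratins, the latter of the hair follicle's inner root sheath, and Awat1 (7.67) makes wax esters in sebaceous glands. Sdr16c6 (7.99) and Fam25c (8.51) complete the set. The choice of these 15 genes required Sham arrays below all Vanillin arrays, and the Sham arrays lay below all Mock arrays too. Sham values of most were under 100, so the sizes depend on the pseudocount: with 1 in place of 16, Krtdap gave 12.12.

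Hair follicle and sebaceous gland markers rose in 18 of 21 (median 3.69), with 20 higher and 0 lower after centring. Their summed intensity was 148560 to 154920 in the Mock arrays, 4661 to 4890 in the Sham arrays and 86484 to 87589 in the Vanillin arrays. Fat cell genes had 10 of 14 markers higher and 3 lower (median 3.07; 10 and 1 after centring), with sums of 148654 to 149841, 27194 to 28155 and 120301 to 123277 in the same order. Adipoq, which encodes the fat hormone adiponectin, read 130, 120 and 117 in the Sham arrays and 13099, 13495 and 13366 in the Vanillin arrays (6.59, SE 0.05, adjusted p = 2.4e-12). Cfd (6.97), the fat-derived complement factor D, Cidea (5.19), a lipid droplet protein, and Fabp4 (3.98), a fatty acid carrier, rose with it. The fallers were Lpl (-0.49), Pparg (-0.21) and Lipe (-0.19), and after centring no adipocyte marker but Lpl was called lower. Pparg was dim, with Sham values of 7.89, 5.67 and 7.89, and Lipe lost its call without Sham replicate 1 or 3 or Vanillin replicate 1 or 2. Skeletal muscle markers rose in 8 of 9 (median 3.86) and Actn3 fell (-0.35), with 8 higher and 0 lower after centring. Their sums were 168226 to 177343, 3269 to 3444 and 62917 to 67649, and Acta1, the actin of skeletal muscle, rose by 4.47 (SE 0.058, adjusted p = 4e-11). Mb, the oxygen store of muscle, rose by 4.83, while its other probe, with a Sham mean of 54.0, gave -0.09.

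In these 4 lists' sums the order was the same: every Sham array lay lowest, every Vanillin array between, and every Mock array highest. Smooth muscle of the gut wall followed the same order with smaller steps. Of 6 measured markers 4 rose (median 0.27) and 5 were higher after centring, with sums of 93504 to 94877 in Mock, 40406 to 43125 in Sham and 46551 to 49840 in Vanillin arrays. Des, the intermediate filament of muscle, rose by 0.76 (SE 0.054, adjusted p = 5.9e-06), Tagln, an actin-binding protein, by 0.43 and Smtn, smoothelin, by 0.38. The fourth riser, Acta2 (0.16, adjusted p = 0.035), lost its call with the replicate numbers as blocks (adjusted p = 0.056) and without Sham replicate 1 or 2 or Vanillin replicate 2 or 3. The part that skin, fat and muscle tissue has in the other differences below was not tested, and in such bulk samples fewer cells of a type and less RNA per cell cannot be told apart. Of the 2604 genes that met the conditions for naming and rose, 2215 had a Mock mean above the Sham mean and 389 did not. Whether their Mock mean also lay above the Vanillin mean, as in the skin markers, was not counted. Of the 5293 that fell, 4516 had a Mock mean below the Sham mean and 777 did not. Both comparisons share the Sham arrays, and the genes were chosen by their difference from those arrays. The shares over all named genes were not counted, so no return toward Mock can be read from these counts.

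**Figure D2:**
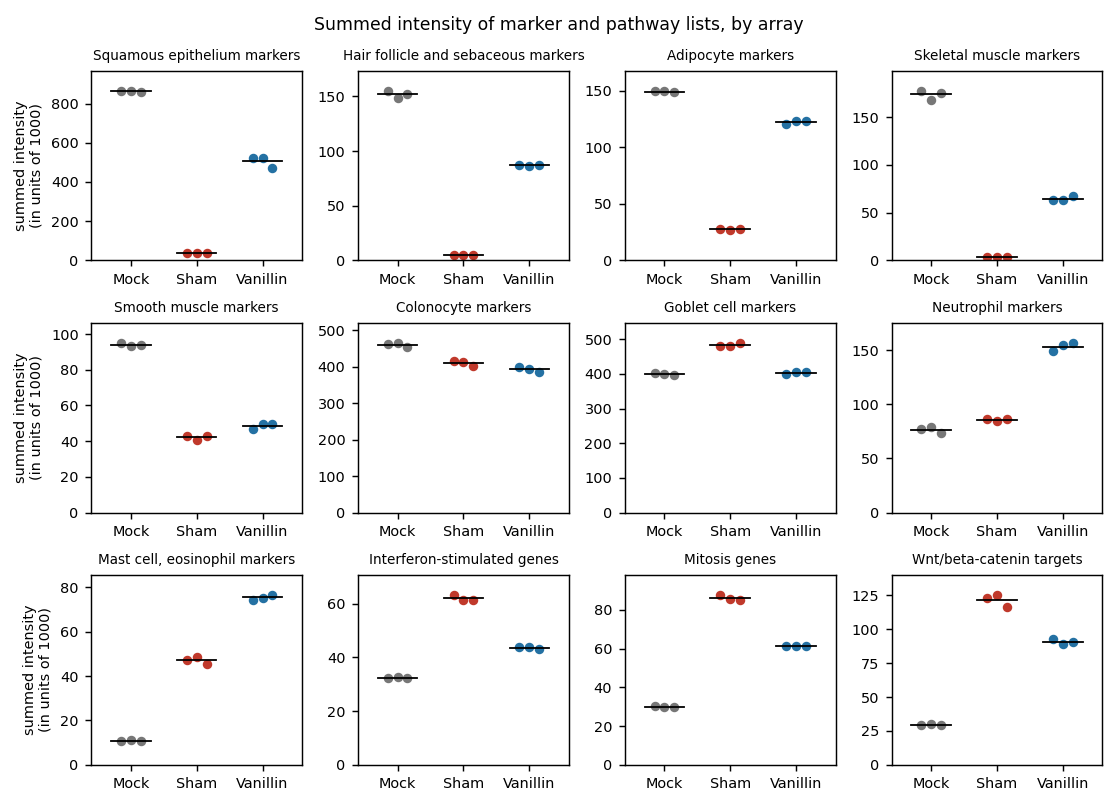
Summed intensity (vertical axis, from 0, in the units of its label) of 12 gene lists in each array, by group (horizontal axis); points are arrays and bars the group means. Skin, fat and skeletal muscle markers are lowest in Sham and highest in Mock arrays, neutrophil and mast cell markers are highest in Vanillin arrays, and interferon-stimulated, mitosis and Wnt target genes are highest in Sham arrays.

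Among genes whose Mock level was not above the Sham level, the largest increases were led by a deubiquitinase and by genes of activated myeloid cells. Il1b encodes interleukin-1β, a cytokine that macrophages and neutrophils make on contact with microbes or damage. It read 16742, 18726 and 18714 in the Sham arrays and 52407, 52047 and 51655 in the Vanillin arrays, with a Mock level of 1223. The groups did not overlap, which the choice of these genes required, and Il1b rose by 1.53 (SE 0.074, adjusted p = 4e-07), or 2.88-fold. Il1a, its relative released by injured cells, rose by 1.27 (SE 0.053, adjusted p = 1.4e-07), from 2344, 2335 and 2124 to 5336, 5676 and 5465. Acod1, whose product makes itaconate in activated macrophages, read 1040, 997 and 972 in the Sham and 2884, 2922 and 3258 in the Vanillin arrays, against 26.2 in Mock arrays. Its difference was 1.57 (SE 0.061, adjusted p = 8.2e-08), and 0.85 on a dimmer probe.

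Of 12 measured genes of the interleukin-1 family and its receptors, 5 rose and 2 fell (median 0.16), with 7 higher and 0 lower after centring. Il1r2, a decoy receptor that soaks up interleukin-1, rose by 1.78 (SE 0.053, adjusted p = 1.1e-08), from 3298, 3242 and 3198 to 11575, 11497 and 10517. Its Mock level was 13741, so that its groups stood in the order of the skin markers. Il18r1 rose by 0.67 on its brightest probe (0.43 without Sham replicate 2) and gave -0.09 on its other. Il1rap rose by 0.25, with other probes at 0.45 and -0.20, the latter dim (Sham mean 13.6). Il1rap lost its call without Vanillin replicate 3 (adjusted p = 0.053). Il18bp, which neutralises interleukin-18, fell by 0.39 and the signalling receptor Il1r1 by 0.23, but neither was called after centring (-0.09 and 0.07). Il18 (-0.18), Il33 (-0.15), Il18rap (0.22), Il1rl2 (0.10) and the receptor antagonist Il1rn (-0.14) were not called, although Il18 and Il1rn were called lower without Vanillin replicate 1 (adjusted p = 0.013 and 0.0087) and Il18rap higher without Vanillin replicate 3 (adjusted p = 0.03).

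Chemokines that attract neutrophils were higher with vanillin: 5 of 8 genes rose and 0 fell (median 0.55), with 6 higher and 0 lower after centring. Cxcl2 read 17366, 16404 and 17425 in the Sham arrays and 37555, 39802 and 40217 in the Vanillin arrays, against 306 in Mock arrays, and rose by 1.2 (SE 0.049, adjusted p = 1.2e-07). Cxcl3 rose by 1.34 (SE 0.083, adjusted p = 2.3e-06), from 3233, 3049 and 3595 to 7974, 7880 and 9155. Both ligands act on Cxcr2, the receptor that draws neutrophils into tissue, which rose by 0.74 (SE 0.13, adjusted p = 0.0017). Ppbp, a platelet chemokine, rose by 2.36, with a Mock level (9680) above its Sham values (2464, 2451 and 2389), and Cxcl15 rose by 0.36. Cxcl1 was not called (0.19, adjusted p = 0.12), nor were Cxcl5 (-0.10) and Cxcr1 (0.01). Cxcl1 read 5297, 4842 and 5854 in Sham and 5496, 6044 and 6731 in Vanillin arrays, which overlap, and it was called without Vanillin replicate 1 (0.26, adjusted p = 0.045).

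Of 18 neutrophil markers, 15 rose and none fell (median 0.65), with 15 higher and 0 lower after centring. Their summed intensity was 73604 to 78789 in Mock, 84309 to 86041 in Sham and 148782 to 156317 in Vanillin arrays. Il1r2 (1.78), the largest riser of the list, was also counted with the interleukin-1 family, and its Mock level lay above its Sham values. How much each member adds to the sums was not tested. Trem1, a receptor that amplifies inflammatory signals in neutrophils and monocytes, read 1244, 1252 and 1161 in Sham and 3381, 3855 and 3558 in Vanillin arrays, against 81.8 in Mock arrays (1.55, SE 0.084, adjusted p = 9.3e-07). Clec4d, a myeloid receptor for fungal and mycobacterial glycolipids, rose by 1.17 (SE 0.065, adjusted p = 1.1e-06), and Retnlg, a secreted protein of neutrophils, by 1.0 (SE 0.06, adjusted p = 1.9e-06). S100a9 (0.66), Mpo (0.69), Ltf (0.60) and Camp (0.52), all granule or cytosolic proteins of neutrophils, were named after their values were seen. The markers not called were S100a8 (-0.01), Ngp (0.42) and Elane (-0.39), and Elane was called lower without Sham replicate 3 (adjusted p = 0.043) or Vanillin replicate 1 (0.049).

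Further increases of this kind fell in other classes. Osm, a cytokine of the interleukin-6 family made by myeloid cells, rose by 1.33 (SE 0.18, adjusted p = 0.00036), from 2359, 2604 and 2684 to 6109, 6978 and 6206. Ifitm6 (1.27) belongs to the interferon-induced transmembrane proteins, Ccrl2 (1.11) is a receptor that binds chemerin, and Npl (1.15) breaks down sialic acid. Reg3b, a lectin that kills bacteria and is made by gut epithelium, read 14443, 15063 and 15920 in the Sham arrays and 32666, 33182 and 34065 in the Vanillin arrays, against 135 in Mock arrays. It rose by 1.14 (SE 0.051, adjusted p = 2.5e-07). Adh6a, an alcohol dehydrogenase, rose by 1.2 and the opsin gene Opn5 by 1.16, although a dim second Opn5 probe (Sham mean 33.2) gave 0.05.

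**Figure D3:**
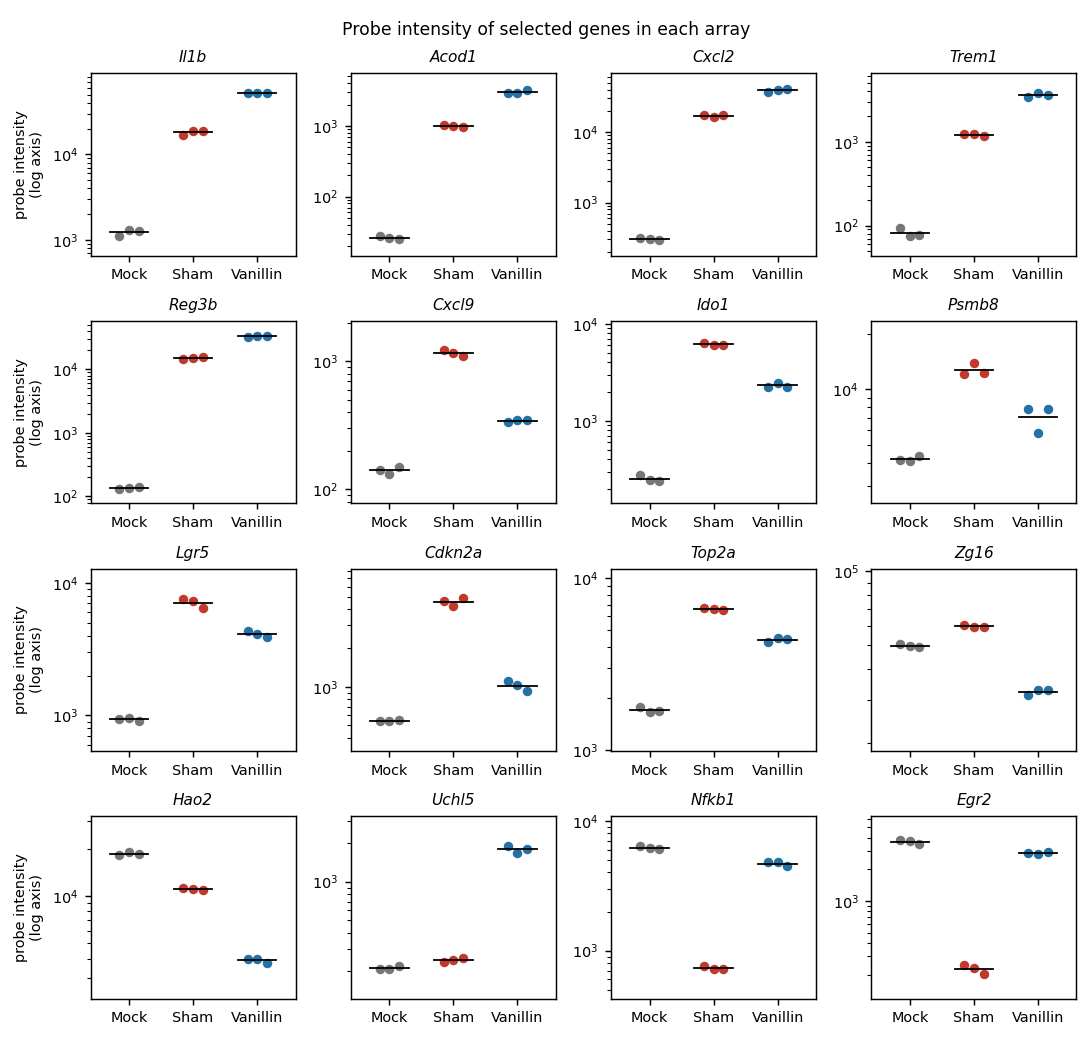
Probe intensity (vertical axes, log scale, each with its own range) of 16 genes in each Mock, Sham and Vanillin array (horizontal axes); points are arrays and bars the group means. Uchl5, Il1b, Acod1, Cxcl2, Trem1 and Reg3b are highest in Vanillin arrays, Cxcl9, Ido1, Psmb8, Lgr5, Cdkn2a and Top2a are highest in Sham arrays, Hao2 and Zg16 are lowest in Vanillin arrays, and Nfkb1 and Egr2 are lowest in Sham arrays.

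Genes that interferons induce were lower with vanillin. Of 25 measured interferon-stimulated genes, 24 fell, none rose, and Xaf1 was not called (0.19), where 35.1% of named genes fell. Their summed intensity was 32247 to 32811 in Mock, 61421 to 63163 in Sham and 43100 to 44015 in Vanillin arrays. The median difference was -0.53, and after centring 12 were called lower and 0 higher. Zbp1, a sensor of nucleic acids in the Z form, read 1452, 1536 and 1441 in the Sham arrays and 668, 615 and 610 in the Vanillin arrays, against 145 in Mock arrays. It fell by 1.21 (SE 0.062, adjusted p = 6.4e-07). Ifit1, which binds viral RNA caps, fell by 1.19 (SE 0.088, adjusted p = 7.5e-06), from 1017, 1009 and 958 to 395, 453 and 431. Ifit2 fell by 1.01 and the ADP-ribosyltransferase Parp14 by 0.77. Each of these 4 genes had Vanillin values between the Sham and the Mock values.

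The targets of interferon-γ, the interferon of T and natural killer (NK) cells, fell in 11 of 17 and rose in 2 (median -0.57), with 9 lower and 3 higher after centring. Cxcl9, a chemokine that attracts activated T cells, read 1212, 1154 and 1092 in the Sham arrays and 337, 346 and 346 in the Vanillin arrays (-1.7, SE 0.058, adjusted p = 3e-08), and a second probe gave -1.23. Ido1, which breaks down tryptophan, fell by 1.41 (SE 0.06, adjusted p = 1.7e-07), from 6310, 6103 and 6061 to 2256, 2431 and 2258. Gbp2 (-0.74) and Gbp3 (-0.77) encode guanylate-binding proteins that attack membranes of intracellular microbes. Cxcl10 (-0.07) and Cxcl11 (-0.45, adjusted p = 0.13), the other ligands of the receptor of Cxcl9, were not called, nor were Gbp5 (-0.22) and Socs1 (-0.04). Cxcl11 was called with only the 6 Sham and Vanillin arrays in the fit (adjusted p = 0.011) and Gbp5 without Sham replicate 2. The risers were Irf1 (0.69) and Nlrc5 (0.30). A dim second probe of Irf1 (means of 15.5 in Sham and 11.5 in Vanillin arrays) gave -0.19, and the other probe of Nlrc5 gave -0.05. Ifng itself fell by 0.68 (SE 0.093, adjusted p = 0.00036), and Ubd, a ubiquitin-like protein that interferon-γ and tumour necrosis factor induce, fell by 1.72 (SE 0.098, adjusted p = 1.3e-06).

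The largest decrease of all, that of Ifit3b (-3.75, SE 1.0), rests on uneven arrays. Its Sham arrays read 591, 657 and 604 and its Vanillin arrays 0.889, -0.667 and 367, so that a pair of Vanillin arrays lay near 0 and the third near the Mock level (432). Its adjusted p was 0.015 and became 0.052 without Vanillin replicate 2.

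The regions before the start of Ifit1 and Gbp2 are shown because both genes fell and both hold the letters of the interferon-stimulated response element, the site bound by interferon-activated factors. The RefSeq table of GRCm38.p6 gives 250 bases before and 50 after the start of a gene, on the gene's strand. Capitals mark GAAA, any 2 bases and GAAA again, searched on both strands (so a run of TTTC, 2 bases and TTTC too).
Ifit1, chr19:34640639-34640938, plus strand: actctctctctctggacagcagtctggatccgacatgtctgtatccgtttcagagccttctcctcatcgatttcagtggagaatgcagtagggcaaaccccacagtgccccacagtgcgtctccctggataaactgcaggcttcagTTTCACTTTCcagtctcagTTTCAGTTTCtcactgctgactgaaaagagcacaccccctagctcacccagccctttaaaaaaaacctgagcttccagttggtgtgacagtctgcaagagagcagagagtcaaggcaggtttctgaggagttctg
Gbp2, chr3:142620413-142620712, plus strand: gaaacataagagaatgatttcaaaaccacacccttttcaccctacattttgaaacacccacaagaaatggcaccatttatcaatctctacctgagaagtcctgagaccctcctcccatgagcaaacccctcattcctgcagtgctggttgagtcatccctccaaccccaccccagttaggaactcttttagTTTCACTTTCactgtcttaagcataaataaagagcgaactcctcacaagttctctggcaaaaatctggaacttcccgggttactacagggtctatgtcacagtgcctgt
The pair of matches in Ifit1 begins 104 and 85 bases before the start, and the match in Gbp2 begins 59 before it. A gene was counted when any of its promoters held a match. These letters occur in 3.99% of the 27025 genes of the table and in 3.63% of those also on the arrays. They occur in 9 of 17 interferon-stimulated genes with a promoter there (52.9%), and in 8 of 11 interferon-γ targets (72.7%). TTCNNNGAA, the letters of the interferon-γ activated site, occur in 9.55% of all genes of the table (8.86% of those on the arrays), in 4 of the 17 and in 5 of the 11. A match describes the sequence and is not a measured binding site.

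Immunoproteasome and peptide loading genes, which interferon-γ also induces and which supply peptides to MHC class I molecules, fell in 10 of 13, with none higher (median -0.31). After centring 4 were lower and 2 higher. Psmb8 and Psmb9 encode catalytic subunits that replace those of the standard proteasome. Psmb8 read 12182, 13818 and 12201 in the Sham arrays and 7817, 5786 and 7863 in the Vanillin arrays, against 4200 in Mock arrays, and fell by 0.84 (SE 0.12, adjusted p = 0.00036). Psmb9 fell by 0.53 (SE 0.073, adjusted p = 0.00037), from 16081, 14212 and 16803 to 11671, 10674 and 10295, and the third such subunit, Psmb10, by 0.65 (SE 0.048, adjusted p = 8e-06). Tapbpl, an editor of MHC class I peptides, fell by 0.41. Tapbpl was not called after centring (-0.12). The members not called were Calr (-0.08), Tapbp (-0.16, and called lower without Sham replicate 2 with adjusted p = 0.04) and B2m, which lies at the top of the intensity range. B2m and Calr are the 2 called higher after centring (0.29 and 0.22), where the shift alone is 0.30.

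The constitutive proteasome changed less. Of 12 genes of the 20S core, the barrel that cuts proteins, 4 fell and 0 rose (median -0.12), but after centring 5 were higher and 1 lower. The share of falls is near that of all named genes, of which 35.1% fell with a median of -0.105. Those that fell were Psma5 (-0.53), Psma1 (-0.24, SE 0.063, adjusted p = 0.014), Psma4 (-0.20) and Psmb2 (-0.14). Psma1 read 8735, 9612 and 9371 in Sham and 8381, 7676 and 7490 in Vanillin arrays, and gave 0.06 after centring (adjusted p = 0.59). Psma5 was dim, with Sham values of 50.6, 39.4 and 46.8. Psmb2 lost its call without Sham replicate 1 or 3 or Vanillin replicate 2 or 3.

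Of 21 genes of the 19S cap, which recognises ubiquitin and unfolds proteins, 6 fell and 0 rose (median -0.07), a share of falls below that of all named genes. After centring, which moved every difference up by 0.30 and called 11167 of all 26423 probes higher, 13 members were higher and 0 lower. Psmd2 (-0.31) and Psmc4 (-0.25) fell with a call in every fit that left out an array, although they gave -0.01 and 0.04, without a call, after centring. Psmd4 (-0.16), Psmd9 (-0.30), Psmd3 (-0.14) and Psmd8 (-0.13) lost theirs in 2 to 6 of the 6 such fits. Without Vanillin replicate 2 there were 2 members lower (Psmd2 and Psmc4), without Sham replicate 1, 2 or 3 or Vanillin replicate 3 there were 3 members lower, and without Vanillin replicate 1 there were 4. Psmd9, Psmd3 and Psmd8 also lost the call with the replicate numbers as blocks, where Psmd10 (-0.18, adjusted p = 0.16) gained one (0.038), so that 4 members were lower. Psmd14, a deubiquitinase of the cap, read 31900, 33407 and 29841 in Sham and 29097, 31306 and 30807 in Vanillin arrays, which overlap, and was not called (-0.06, adjusted p = 0.41). After centring it was called higher (0.24).

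Uchl5 encodes another deubiquitinase that docks on the 19S cap, and it had the largest increase among genes whose Mock level was not above the Sham level. It read 234, 243 and 252 in the Sham arrays and 1911, 1687 and 1811 in the Vanillin arrays, against 212 in Mock arrays. The difference was 2.81 (SE 0.059, adjusted p = 8.5e-10), or 7.02-fold, from a single probe, with the Sham arrays near the Mock level.

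NF-κB genes were called in both directions, as were all named genes (17.4% higher and 35.1% lower). Of 17 subunits, inhibitors and kinases, 5 rose and 4 fell (median -0.02), and after centring 9 were higher and 0 lower. Nfkb1, which encodes the p105 precursor of the p50 subunit, read 760, 723 and 724 in the Sham arrays and 4787, 4811 and 4477 in the Vanillin arrays. It rose by 2.65 (SE 0.05, adjusted p = 4.1e-10), and its Mock level of 6228 gave it the order of the skin markers. Nfkbid (0.75) and Nfkbiz (0.36) encode nuclear relatives of the NF-κB inhibitors, and Nfkbia (0.26) and Nfkbib (0.15) encode inhibitors in the cytoplasm. The genes that fell were Relb (-0.48) and Nfkb2 (-0.45), the partners of the alternative pathway, the coactivator Bcl3 (-0.40) and the kinase scaffold Ikbkg (-0.32), and none of these 4 was called after centring. The lowest value of the list, that of Chuk (-0.8), was not called. Rela, the main activating subunit, read 4669, 4267 and 4934 in Sham and 4546, 3994 and 3715 in Vanillin arrays, which overlap, and was not called (-0.18, adjusted p = 0.099). It was called without Vanillin replicate 1 (-0.26, adjusted p = 0.017).

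Nfkbia had Sham values of 18256, 19715 and 21437 and Vanillin values of 23516, 23669 and 23774, and an adjusted p of 0.021. Leaving out an array took that p to between 0.053 and 0.073 for 4 of the 6 arrays (Sham replicates 1 and 2 and Vanillin replicates 2 and 3). Nfkbib lost its call in the same 4 fits, and Ikbkg without Sham replicate 1 or 3 or Vanillin replicate 2 or 3. Among classical outputs of NF-κB, Tnf (0.06, adjusted p = 0.31) and Il6 (0.04, adjusted p = 0.61) were not called, while Il1b and Cxcl2 rose as described. Tnf read 385, 398 and 387 in Sham and 400, 410 and 410 in Vanillin arrays, which are close but do not overlap, and Il6 read 708, 673 and 656 and 716, 704 and 681, which overlap. After centring both were called higher (0.36 and 0.34).

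**Figure D4:**
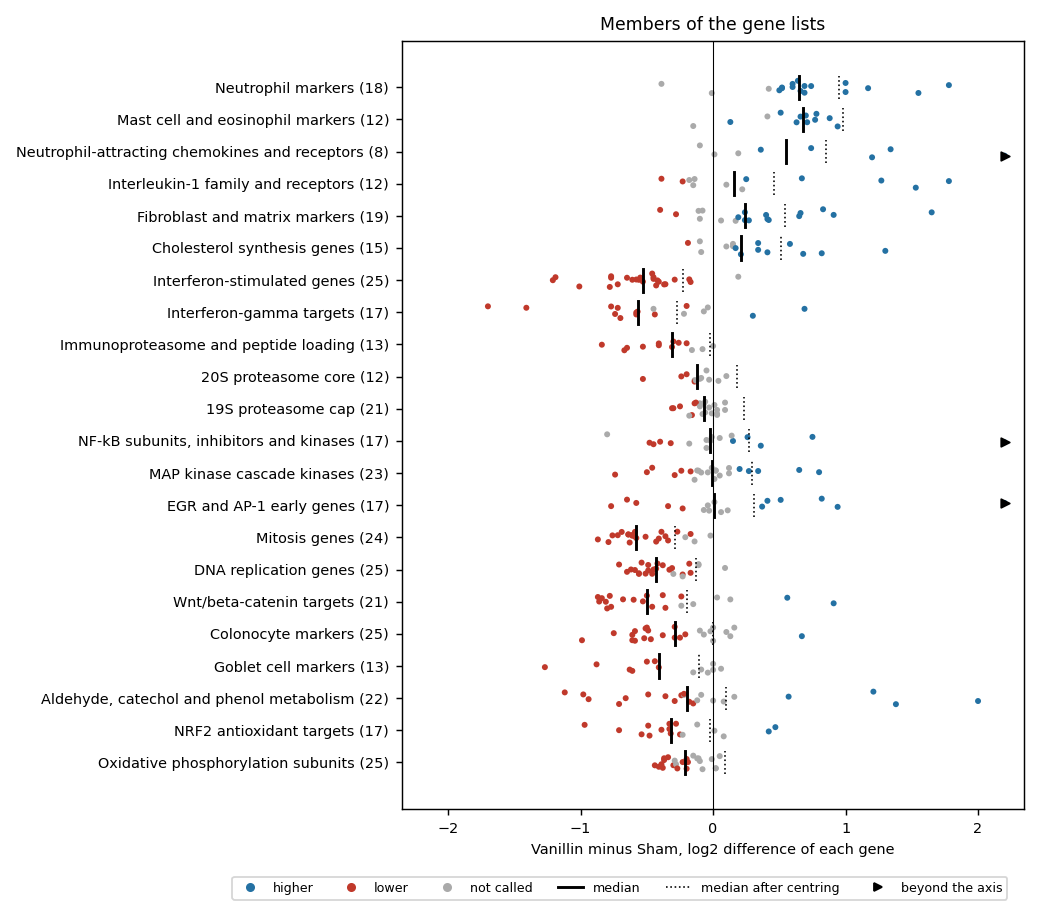
Difference of each member of 22 gene lists (horizontal axis, Vanillin minus Sham, log2), with the number of measured members in brackets; blue and red points were called higher and lower, grey ones were not called. Solid bars are list medians and dotted bars the medians after centring on ribosomal protein and oxidative phosphorylation probes; members beyond the axis are drawn as triangles. Neutrophil and mast cell markers lie mostly above 0, and the medians of interferon-stimulated and mitosis genes lie below 0 on both scales. The 19S cap lies near 0 and, as every list does, moves up after centring.

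Among MAP kinase cascade kinases 5 of 23 rose and 6 fell (median -0.01), with 13 higher and 1 lower after centring. Of all named genes 17.4% rose and 35.1% fell, so calls in both directions are not particular to this list. Mapk12, a p38 kinase prominent in skeletal muscle, rose by 0.80 (SE 0.055, adjusted p = 4.7e-06), with a Mock level (1017) above the Sham values (224, 215 and 224). Map3k8, Map3k3, Map3k1 and Map2k3 were the other risers (0.65, 0.34, 0.27 and 0.20). Map2k3 lost its call without Sham replicate 1 or 2 or Vanillin replicate 3. Map3k5, a stress-activated kinase upstream of JNK and p38, fell by 0.74 (SE 0.072, adjusted p = 4.2e-05), the JNK gene Mapk9 by 0.46 and the ERK5 gene Mapk7 by 0.50, the last pair without a call after centring. Mapk14, which encodes p38α, read 4616, 4192 and 4332 in Sham and 4527, 4613 and 4430 in Vanillin arrays, which overlap, and was not called (0.05, adjusted p = 0.5). After centring it was called higher (0.34).

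Early genes of the EGR and AP-1 families, which MAP kinases switch on within minutes, rose in 6 of 17 and fell in 5 (median 0.01), with 8 higher and 2 lower after centring. Egr1 read 8777, 8790 and 8923 in Sham and 17647, 16893 and 16228 in Vanillin arrays (0.94, SE 0.048, adjusted p = 5.8e-07), with a Mock level of 14266. Egr2 rose by 3.57 (SE 0.072, adjusted p = 6.4e-10), from 247, 230 and 201 to 2839, 2803 and 2916, with a Mock level of 3661. Fosb (0.82), Fos (0.51), Nr4a1 (0.41) and Junb (0.37) were the other risers. Jun fell by 0.65 (SE 0.062, adjusted p = 3.9e-05), as did Nr4a2 (-0.77), Atf3 (-0.58), Nr4a3 (-0.34) and Jund (-0.23), though after centring Jund gave 0.07 and Atf3 and Nr4a3 were not called. Atf3 also lost its call without Sham replicate 1 or Vanillin replicate 3, and a dim second probe of Nr4a3 gave -0.08. Of 10 dual-specificity phosphatases, which switch MAP kinases off, 4 rose and 3 fell (median -0.04), with 5 higher and 1 lower after centring. Dusp1 read 8348, 7854 and 8247 in Sham and 17197, 16272 and 15477 in Vanillin arrays (1.0, SE 0.055, adjusted p = 9.7e-07), and Dusp5 (0.92), Dusp7 (0.80) and Dusp2 (0.39) rose too. Those that fell were Dusp9 (-0.43, without a call after centring), Dusp16 (-0.50, but -0.06 on its other probe) and Dusp8 (-0.20). Dusp2 lost its call without Sham replicate 2 or Vanillin replicate 3, and Dusp8 with replicate blocks and without any of the 6 arrays but Sham replicate 3.

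Proliferation and Wnt genes were lower with vanillin. Of 24 mitosis genes, 21 fell and none rose (median -0.58), and 14 were lower and 1 higher after centring. Their summed intensity was 29773 to 30210 in Mock, 84917 to 87549 in Sham and 61284 to 61481 in Vanillin arrays. Top2a, the topoisomerase that untangles chromosomes, read 6710, 6594 and 6559 in the Sham arrays and 4270, 4482 and 4444 in the Vanillin arrays, against 1709 in Mock arrays. It fell by 0.59 (SE 0.046, adjusted p = 1.1e-05). Mki67, the proliferation antigen Ki-67, fell by 0.58 (SE 0.057, adjusted p = 5.2e-05), and the spindle genes Tpx2, Aurka and Kif11 fell by 0.87, 0.61 and 0.63. In all of these the Vanillin arrays lay between the Sham and the Mock arrays, except that Mki67 overlapped with Mock. The members not called were Nuf2, Cdk1 and Kif20a, and Kif20a was called higher after centring.

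DNA replication genes fell in 20 of 25 with none higher (median -0.43), and 9 were lower and 2 higher after centring. Uhrf1, which carries DNA methylation through replication, fell by 0.62 (SE 0.048, adjusted p = 1.2e-05), from 4025, 3902 and 3949 to 2601, 2567 and 2565. Cdc45 (-0.56), Mcm2 (-0.65) and Mcm3 (-0.49) encode parts of the replicative helicase.

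The start regions of Ccnb2, a mitotic cyclin that fell by 0.59 (SE 0.054, adjusted p = 2.9e-05) and is shown as a second example, and of Top2a hold letters that recur in mitosis genes. Capitals mark CCAAT, the box bound by NF-Y, and TTTGAA, the cell cycle homology region, on either strand (so ATTGG and TTCAAA too).
Ccnb2, chr9:70421505-70421804, minus strand: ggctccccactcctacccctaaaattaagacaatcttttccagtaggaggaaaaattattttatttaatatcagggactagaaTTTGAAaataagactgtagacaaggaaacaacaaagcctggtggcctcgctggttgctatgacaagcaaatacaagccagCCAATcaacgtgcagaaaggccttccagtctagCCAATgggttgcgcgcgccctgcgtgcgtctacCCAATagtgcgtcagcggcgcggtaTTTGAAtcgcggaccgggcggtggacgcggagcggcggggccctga
Top2a, chr11:99024140-99024439, minus strand: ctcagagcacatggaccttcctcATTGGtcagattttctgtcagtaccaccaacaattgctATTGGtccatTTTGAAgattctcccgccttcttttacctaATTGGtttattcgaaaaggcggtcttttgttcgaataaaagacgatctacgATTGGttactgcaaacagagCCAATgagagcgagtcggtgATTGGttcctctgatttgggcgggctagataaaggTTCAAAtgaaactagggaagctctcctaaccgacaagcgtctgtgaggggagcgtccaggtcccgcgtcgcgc
CCAAT occurs in 41.1% of the 27025 genes of the promoter table (41.7% of those on the arrays). It occurs in 16 of 20 mitosis genes with a promoter in the table (80.0%). TTTGAA occurs in 20.2% of all genes of the table (16.4% of those on the arrays) and in 15 of those 20 mitosis genes. All promoters compared have the same length, and matches of each kind were counted on their own.

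Of 21 targets of Wnt/β-catenin signalling, which keeps crypt cells dividing, 15 fell and 2 rose (median -0.50), with 11 lower and 4 higher after centring. Their sums were 29044 to 29764 in Mock, 116471 to 125003 in Sham and 89203 to 93057 in Vanillin arrays. Lgr5, the receptor that marks crypt stem cells, read 7524, 7274 and 6488 in the Sham arrays and 4329, 4097 and 3930 in the Vanillin arrays, against 936 in Mock arrays (-0.78, SE 0.066, adjusted p = 1.8e-05). Axin2, a feedback inhibitor of the pathway, fell by 0.50 (SE 0.045, adjusted p = 2.8e-05), from 4403, 4543 and 4416 to 3224, 3188 and 3047. Ascl2, a stem cell transcription factor, fell by 0.80, Sox4 by 0.86 and the secreted antagonist Dkk2 by 0.81. Ccnd1, cyclin D1, fell by 0.84 with uneven Vanillin arrays (10969, 7345 and 9663). The risers were Apcdd1 (0.91), a Wnt inhibitor found also in hair follicles, and Tnfrsf19 (0.56).

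Cdkn2a encodes the p16 and p19Arf inhibitors of the cell cycle and had the largest decrease with even arrays. It read 4664, 4280 and 4891 in the Sham arrays and 1106, 1038 and 923 in the Vanillin arrays, against 543 in Mock arrays. The fall of 2.16 (SE 0.075, adjusted p = 3.6e-08) was 4.46-fold, and its second probe gave -2.38. Cdkn1a, which encodes p21, was not called (-0.01, adjusted p = 0.93). Of 17 apoptosis and p53 target genes, 11 fell and 1 rose (median -0.26), but there were 6 higher and 4 lower after centring (median 0.04). Bcl2, an inhibitor of apoptosis, fell by 0.65 and Trp53inp1 by 0.55. Bbc3, which promotes apoptosis, fell by 0.84 on its brightest probe and gave 0.01 on the other, which was dim (Sham mean 7.12). Sesn1, a stress-induced gene, was the riser (0.95, SE 0.048, adjusted p = 5.7e-07).

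Other large decreases were spread over unrelated functions. Timp2, an inhibitor of metalloproteinases, fell by 1.97 (SE 0.081, adjusted p = 1.2e-07), from 602, 528 and 536 to 148, 122 and 121, which is below the Mock level of 287. Pigt, part of the enzyme that attaches GPI anchors, fell by 1.95 (SE 0.052, adjusted p = 5.4e-09), from 8056, 7647 and 7837 to 1920, 2048 and 2104, with a Mock level of 3145. Apob (-1.83) carries lipid in lipoproteins, Gata5 (-1.77) is a transcription factor of gut epithelium, and Upb1 (-1.64) works in pyrimidine breakdown. Tafa2 fell by 1.68 and Pip5kl1 by 1.59. Rps29, a ribosomal protein, fell by 1.99 (SE 0.44), but its Vanillin arrays read 11.4, 0.889 and 56.6 and spread widely.

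Of 12 markers of mesothelium, the cell layer that covers the outside of the gut, and of exocrine pancreas, 8 fell and Cela2a rose (0.25), with 5 lower and 2 higher after centring. All 6 mesothelial members were among those that fell. Upk3b read 557, 539 and 503 in the Sham arrays and 124, 119 and 121 in the Vanillin arrays, against 160 in Mock arrays (-2.0, SE 0.049, adjusted p = 2.9e-09). Lrrn4 fell by 1.76, the transcription factor Wt1 by 1.53, Upk1b by 1.47, Muc16 by 0.68 and Msln by 0.33. All but Msln fell by at least 0.38 after centring as well.

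Markers of the mature colon lining were lower in part. Colonocyte markers fell in 16 of 25 and 1 rose (median -0.29), but after centring 7 were lower and 7 higher with a median of 0.00. Their summed intensity was 453750 to 464866 in Mock, 401194 to 414603 in Sham and 385765 to 399030 in Vanillin arrays, so the markers of the labelled tissue were present in every array. Hsd11b2, which inactivates glucocorticoids, fell by 0.99 (SE 0.068, adjusted p = 4.5e-06), Cdx2, the intestinal master regulator, by 0.61 and the brush border protocadherin Cdhr2 by 0.61. Slc26a3, the chloride/bicarbonate exchanger, read 2402, 2573 and 2460 in Sham and 1541, 1789 and 1976 in Vanillin arrays, against 19621 in Mock arrays (-0.49, SE 0.089, adjusted p = 0.0019), but was not called after centring (-0.19). The riser was Emp1 (0.67), a membrane protein also abundant in squamous epithelium. Epcam (0.10, other probe -0.23) was not called and lies near the top of the range, and it counts among the 7 higher after centring (0.4). Krt8 was listed at 0 in the Sham and Vanillin arrays, although its partner Krt18 was measured and not called (-0.07).

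Goblet cell markers fell in 7 of 13 with none higher (median -0.41), and 5 were lower and 5 higher after centring. Zg16, a lectin of colonic mucus, read 60462, 59114 and 59351 in the Sham arrays and 31393, 32715 and 32850 in the Vanillin arrays, which also lie below the Mock level of 49685. It fell by 0.88 (SE 0.043, adjusted p = 4e-07). Atoh1, the factor that commits cells to the secretory lineage, fell by 1.27 (SE 0.098, adjusted p = 1.1e-05), Tff3 by 0.61 and Bcas1 by 0.63. Muc2, the main gel-forming mucin, fell by 0.50 (SE 0.053, adjusted p = 7.3e-05), from 55300, 57984 and 61137 to 40348, 41999 and 40692, near the top of the range in Sham arrays. Muc13 and Spink4 lie at that top, so a change in them could not be seen. Both count among the 5 higher after centring (0.3 and 0.3), a value that the shift of 0.30 gives by itself.

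Another 777 genes fell although their Mock mean was not below the Sham mean, and their 10 largest decreases included genes of epithelial transport and metabolism among others. Hao2, a peroxisomal hydroxyacid oxidase, read 11190, 11126 and 10966 in the Sham arrays and 3962, 4007 and 3779 in the Vanillin arrays, against 18548 in Mock arrays (-1.5, SE 0.045, adjusted p = 1.2e-08). Best2, a bicarbonate channel of colonic goblet cells, fell by 1.14 (SE 0.062, adjusted p = 9.7e-07), Ccl28, a mucosal chemokine for antibody-secreting cells, by 1.11 and the zinc transporter Slc39a5 by 1.08. Mep1a, a brush border protease, fell by 1.05, the carboxylesterase Ces2a by 1.22 and the thyroid hormone carrier Ttr by 1.1. Gp2, a bacteria-binding protein of M cells and pancreatic acini, fell by 1.62, from 536, 509 and 554 to 155, 160 and 175, far below its Mock level of 5950. Tmem25 (-1.31) and Bnip5 (-1.11) were the others. The choice of these 10 genes required Vanillin arrays below all Sham arrays and a Mock mean not below the Sham mean. All their Vanillin arrays also lay below all Mock arrays, which nearly follows from that choice.

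Hormone-secreting and tuft cells, rare sensory cells of the lining, had 5 of 16 markers higher and 7 lower, and 7 higher and 3 lower after centring. Sst, somatostatin, fell by 1.02 (SE 0.079, adjusted p = 1.1e-05), Chga, a granule protein of hormone cells, by 0.51 and Avil, a tuft cell protein, by 0.72. Pou2f3, the tuft cell regulator that the epidermis also makes, rose by 3.22 (SE 0.12, adjusted p = 4.7e-08), from 46, 40.6 and 30.1 to 437, 501 and 541, with a Mock level of 569. The other risers were Neurog3 (0.53), Cck (0.38), Dclk1 (0.37, other probes at -0.17 and 0.04) and Tph1 (0.26). Neurog3 was called in the full fit and lost its call in every fit without an array except the one without Sham replicate 3.

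Enzymes that could act on vanillin did not change as a block. Of 22 genes of aldehyde, catechol and phenol metabolism, 12 fell and 4 rose (median -0.20), but there were 7 higher and 5 lower after centring (median 0.10). Their summed intensity was 186287 to 192872 in Mock, 198074 to 202358 in Sham and 168708 to 174949 in Vanillin arrays. Aldh3a1, an aldehyde dehydrogenase of cornea and other squamous epithelia, rose by 2.0 (SE 0.097, adjusted p = 4e-07), from 521, 684 and 661 to 2574, 2619 and 2365, with a Mock level of 7531. Adh7 (1.38), an alcohol dehydrogenase of upper digestive epithelium, the aldehyde reductase Akr1a1 (1.21) and the aldehyde oxidase Aox1 (0.57) were the other risers. All 4 had a Mock level above their Sham values. Aldh2, the mitochondrial aldehyde dehydrogenase, fell by 0.24 (SE 0.06, adjusted p = 0.0092) and gave 0.05 after centring. Sult1c2, a sulfotransferase that conjugates phenols, fell by 0.94 (SE 0.05, adjusted p = 7.6e-07), from 1838, 1712 and 1719 to 919, 922 and 881. Aldh1b1 (-1.12), Ugt2b35 (-0.98), Adh1 (-0.71) and Sult1b1 (-0.66) were also among those that fell.

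Antioxidant targets of NRF2, a factor that reactive aldehydes can activate, fell in 11 of 17 and rose in 2 (median -0.32), with 4 lower and 3 higher after centring. The glutathione transferases Gstm3 (-0.97), Gsta3 (-0.71), Gsta4 (-0.49) and Gstp1 (-0.48) fell, Gstp1 without a call after centring, and Gstm1 (-0.23) was not called. Nqo1, a quinone reductase, fell by 0.33 (SE 0.095, adjusted p = 0.019), but not with a call after centring (-0.03) or without Sham replicate 1 (0.064), Sham replicate 3 (0.065) or Vanillin replicate 2 (0.068). Hmox1, heme oxygenase 1, rose by 0.42 (SE 0.057, adjusted p = 0.00031), from 5247, 5094 and 4701 to 6968, 6755 and 6468, as did catalase, Cat (0.47), whose call was lost without Sham replicate 1 or Vanillin replicate 2 or 3.

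TRP channels, the family that senses vanilloids, rose in 2 of 14 and fell in 5 (median -0.04), but there were 5 higher and 1 lower after centring (median 0.26). Trpv6, a calcium channel of gut epithelium, fell by 1.35 (SE 0.078, adjusted p = 1.4e-06), from 982, 968 and 966 to 340, 404 and 370, which brought it to the Mock level of 419. Trpv1, the capsaicin receptor, read 25.8, 19.9 and 18.6 in Sham and 16.8, 14.1 and 14.3 in Vanillin arrays, which are dim values, and fell by 0.26 (SE 0.083, adjusted p = 0.027). That call was lost without Sham replicate 1 or Vanillin replicate 2 or 3, and the difference was 0.03 after centring. Trpa1, the irritant receptor, was not called (0.17, adjusted p = 0.28). Trpm5 (-0.40), Trpm4 (-0.37) and Trpm8 (-0.28) fell too, and none of these 3 was called after centring (-0.11, -0.07 and 0.02). The risers were Trpm7 (0.37) and Trpm3 (0.39), the latter against -0.35 on another probe and -0.11 and -0.01 on dim ones.

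CC chemokines split, with 5 of 15 higher and 6 lower (median -0.03), where 17.4% and 35.1% of named genes were. After centring 9 were higher and 5 lower (median 0.26). Ccl5, which attracts T cells, fell by 1.2 (SE 0.079, adjusted p = 3.5e-06), from 793, 784 and 780 to 362, 317 and 324. Ccl20, which attracts Th17 and dendritic cells, fell by 1.01 (SE 0.051, adjusted p = 5.7e-07), and Ccl28 fell as given above. The other fallers were Ccl17 (-1.08), Ccl25 (-0.65, and -0.22 on a dim second probe) and Ccl2 (-0.28, smaller in size than the centring shift of 0.30). Ccl7, which attracts monocytes, rose by 0.77 (SE 0.052, adjusted p = 4.2e-06), from 1416, 1396 and 1401 to 2537, 2341 and 2368. The other risers were the eosinophil chemokines Ccl11 (0.64) and Ccl24 (0.84) and the macrophage inflammatory proteins Ccl3 (0.73) and Ccl4 (0.69).

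Interleukin-6 family genes rose in 5 of 10, and Lif fell (-0.88, SE 0.089, adjusted p = 5.6e-05), with 8 higher and 1 lower after centring. Beside Osm, the receptors Il6ra (1.3), Lifr (0.89) and Il6st (0.31) rose, although second probes of Il6ra and Lifr gave -0.10 and 0.06. Socs3, the feedback inhibitor of STAT3, rose by 0.38 (SE 0.043, adjusted p = 0.00011), from 8917, 9030 and 8849 to 11416, 11479 and 12003. Of 10 genes of the interleukin-17, 22 and 23 axis, 4 rose: Il22ra2, the soluble trap for interleukin-22 (1.43), Il17f (0.80), Il23r (0.50) and Il12b (0.47). Il23a (-0.37) and Il17c (-0.35) fell, and after centring 5 members were higher and 0 lower.

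Prostaglandin genes moved both ways, 6 up and 7 down of 16 (median -0.06), where 17.4% of named genes rose and 35.1% fell. After centring 6 were higher and 2 lower (median 0.23). Ptgs2, the inducible cyclooxygenase COX-2, read 2648, 2817 and 2600 in the Sham arrays and 4675, 5026 and 5358 in the Vanillin arrays, against 281 in Mock arrays (0.90, SE 0.061, adjusted p = 4.4e-06). Ptgs1, the constitutive enzyme, rose by 1.5 (SE 0.058, adjusted p = 7.9e-08), with a Mock level (5173) above its Sham values. The receptor gene Ptgfr rose (1.08, but 0.15 on a probe near 0) and Ptger3 fell (-0.58).

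Matrix metalloproteinases and their inhibitors fell in 8 of 17 and rose in 4 (median -0.14), but there were 7 higher and 4 lower after centring (median 0.16). Mmp7, matrilysin of intestinal tumours, read 11647, 13912 and 12704 in the Sham arrays and 5975, 6145 and 6054 in the Vanillin arrays, against 26 in Mock arrays (-1.07, SE 0.068, adjusted p = 2.7e-06). Mmp3 fell by 0.60 and the inhibitor Timp1 by 0.58. The risers were the neutrophil enzymes Mmp9 (0.69) and Mmp8 (0.60), Mmp2 (0.62) and Mmp13 (0.14), and the call of Mmp13 was lost without Sham replicate 1 or 3 or Vanillin replicate 2 or 3.

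Of 13 antimicrobial proteins of the epithelium, 2 rose and 3 fell (median -0.01), but there were 7 higher and 1 lower after centring (median 0.29). Beside Reg3b the riser was Sprr1a (2.06), a cornified envelope precursor whose Mock level (46758) is above its Sham values (6534, 6782 and 6322). Duoxa2, the maturation factor of an epithelial oxidase, fell by 1.17 (SE 0.063, adjusted p = 9.1e-07), from 868, 861 and 859 to 411, 345 and 373. Lcn2, which withholds iron from bacteria, fell by 0.33 and Reg3g by 0.28, but neither was called after centring (-0.04 and 0.01). The call of Reg3g was also lost without Sham replicate 1 or 3. Pla2g2a and Retnlb lie at the top of the range. Both count among the 7 higher after centring (0.29 and 0.3), near the shift of 0.30 by itself.

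Immune and stromal cell markers gave a mixed picture. Of 12 markers of mast cells and eosinophils, 10 rose and none fell (median 0.68), with 10 higher and 0 lower after centring. Their sum was 10596 to 11013 in Mock, 45360 to 48496 in Sham and 74543 to 76422 in Vanillin arrays. Cpa3, a mast cell carboxypeptidase, read 9823, 10361 and 9250 in Sham and 19049, 19014 and 18452 in Vanillin arrays (0.94, SE 0.062, adjusted p = 3.7e-06). Hdc, which makes histamine, rose by 0.77, the IgE receptor chain Ms4a2 by 0.88 and the tryptase Tpsb2 by 0.71. Of 16 macrophage and monocyte markers, 9 rose and Mertk fell (-0.41), with 11 higher and 0 lower after centring. Cd163, a scavenger receptor of resident macrophages, rose by 2.29 (SE 0.079, adjusted p = 3.4e-08), with a Mock level (847) above its Sham values (120, 107 and 95.3), and Arg1, arginase 1, rose by 0.72.

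Among 14 markers of B and plasma cells 6 fell and 1 rose (median -0.12), but there were 6 higher and 5 lower after centring (median 0.17). Tnfrsf17, the survival receptor BCMA of plasma cells, fell by 1.0 (SE 0.082, adjusted p = 1.6e-05), from 1011, 1083 and 982 to 534, 495 and 491. Derl3, a secretory stress protein abundant in plasma cells, fell by 1.03 and the B cell coactivator Pou2af1 by 0.76, while Prdm1, a plasma cell regulator that other cells use too, rose by 0.80. For T and NK cells 6 of 18 markers rose and 4 fell (median -0.07), with 8 higher and 3 lower after centring (median 0.23). Prf1, perforin, rose by 1.01 (SE 0.059, adjusted p = 1.5e-06) from low Sham values of 70.6, 70.6 and 62.6, and the receptor chains Cd247 and Cd3g rose by 0.99 and 0.85. Cd3e (-0.47), Cd8a (-0.32), Gzmb (-0.80) and Ifng fell, Cd8a without a call after centring, so members of 1 receptor complex went opposite ways.

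Fibroblasts and matrix had 12 of 19 markers higher and 2 lower (median 0.24), and endothelial markers rose in 7 of 14 with none lower (median 0.15). After centring 16 fibroblast and 11 endothelial markers were higher and 0 and 0 lower. Lum, the collagen-binding proteoglycan lumican, rose by 1.65 (SE 0.068, adjusted p = 1.2e-07), from 4402, 4510 and 4535 to 12844, 14340 and 15135, with a Mock level of 12368. Postn, periostin, rose by 0.91, Fap, a protease of activated fibroblasts, by 0.83 and Col3a1, a fibrillar collagen, by 0.66. Tnc (-0.40) and Fn1 (-0.28) fell, but neither was called after centring (-0.10 and 0.02). Cldn5, a tight junction protein of endothelium, rose by 0.90 (SE 0.05, adjusted p = 1.1e-06) and Emcn, Pecam1 and Egfl7 by 0.62, 0.48 and 0.44. Of 9 markers of enteric neurons and glia, Vip, the vasoactive peptide, fell by 1.16 (SE 0.052, adjusted p = 2.3e-07) and Uchl1 by 0.55, whereas the glial genes S100b (0.79) and Sox10 (0.37, 0.10 on its other probe) rose, and there were 4 higher and 2 lower after centring. Sox10 lost its call without Sham replicate 1 or 3 or Vanillin replicate 1 or 2. Erythroid and platelet markers rose in 4 of 6 (4 higher and 0 lower after centring), among them Pf4 (0.43), Alas2 (0.41) and Ppbp, and Slc4a1 (0.19) lost its call without any one of the 6 arrays except Sham replicate 2, and with replicate blocks.

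Among the metabolic lists, cholesterol synthesis stood on the higher side, with 9 of 15 genes higher, against 17.4% of named genes, and Nsdhl lower (-0.19, median 0.21). After centring 13 were higher and 0 lower, where 11167 of all 26423 probes were called higher. Hsd17b7, a reductase of the pathway, read 4232, 4357 and 4080 in the Sham arrays and 10008, 10811 and 10347 in the Vanillin arrays (1.3, SE 0.054, adjusted p = 1.4e-07). Nsdhl lost its call without Sham replicate 1 or Vanillin replicate 2 or 3. Msmo1 rose by 0.82, Lss, which closes the sterol rings, by 0.68 and Idi1 by 0.58. These 4 genes had Mock levels above their Sham values. Epidermis and sebaceous glands also make cholesterol, and the part of their RNA in these values was not tested.

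Oxidative phosphorylation subunits fell in 14 of 25 with none higher (median -0.21), but after centring none was lower and 5 were higher. Ndufs3 (-0.41), Cox7b (-0.44), Sdha (-0.37) and Ndufa1 (-0.30) had the smallest p and lost their calls after centring. Ribosomal proteins fell in 8 of 15 (median -0.29) and Rpl22 rose (0.28), with 2 lower and 5 higher after centring. Both lists define that centring, so their shift under it is by construction. Of 17 glycolysis and hypoxia genes 2 rose and 5 fell (median -0.03), but there were 9 higher and 0 lower after centring (median 0.27). The glucose transporter Slc2a1 (0.46) and Vegfa (0.47) rose, and hexokinase 2, Hk2 (-0.50), Pfkl (-0.37), Pdk1 (-0.35), Ankrd37 (-0.24) and Pkm (-0.20) fell, but none of these 5 was called after centring. Ankrd37 lost its call without Sham replicate 2 or 3, and Pkm without Sham replicate 1 or Vanillin replicate 3. Unfolded protein response genes fell in 12 of 19 and Trib3 rose (0.45). The list had a median of -0.29, but there were 6 higher and 5 lower after centring (median 0.01). Sdf2l1 (-0.77), Pdia4 (-0.58) and Pdia6 (-0.58), which fold proteins in the endoplasmic reticulum, fell on both scales, as did Derl3.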

How the data were processed

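Colon RNA was amplified and labelled with Cy5 in 1 colour, per the labels' protocols. The authors deposited 1 linear intensity per probe. From the values, background had been subtracted (3 to 14 negative probes an array) and arrays had been quantile normalized, and limma appears in the submitters' processing notes with no role. No scanner or filter is known from the sources used here.

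Negative values were set to 0 before log2(value + 16). Means of the 3 groups were estimated from the 9 arrays together (limma 3.58.1, R 4.3.3, eBayes without trend, two-sided), p-values were adjusted by Benjamini-Hochberg over 26423 probes, and calls were made under 0.05. The number of arrays limits the precision (median residual SD 0.0895), and the fit was tested on simulated data. The platform's table gave 20377 probes 1 symbol and 6046 none, with 2126 old symbols updated from RefSeq. Each gene was represented by its brightest probe.

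Genes named are the 15 largest rises and falls with an intensity of at least 100 in a group and no overlap, the 15 largest rises with Mock not above Sham, the 10 largest falls with Mock not below Sham, up to 4 members per list with the smallest p, and set genes of the pathways. Members and the 47 lists were chosen with earlier results of these data known. Same-numbered Sham and Vanillin arrays deviated together (correlations 0.169, 0.126 and 0.201), so the number was also fitted as a block. Other alternatives were pseudocounts of 1 and 64, no dim probes, only 6 arrays, array weights, repeated quantile normalization, centring on ribosomal and oxidative phosphorylation probes, an intensity trend, means over probes, and leaving out each array. Centring on median differences was added after the data were seen. RefSeq promoters are of GRCm38.p6. The plots were made by matplotlib 3.10.9 (Python 3.11.15).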

Additional observations from a re-analysis of the deposited data

How the results depend on the processing

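Scaling was the choice that moved the results most. Centring on ribosomal protein and oxidative phosphorylation probes gave 11167 probes higher and 1761 lower, and centring on the median difference, chosen after seeing the data, gave 5628 and 5652. Fits without 1 of the 6 arrays called between 3591 and 4038 higher and between 7211 and 8714 lower, and every other alternative stayed within 1.5 times of 4141 and 8518. With the replicate number as a block 4057 rose and 8212 fell. Among the 333 named genes that were checked, Acta2, Dusp8, Nsdhl, Psmd3, Psmd8, Psmd9 and Slc4a1 lost their calls there and Psmd10 gained one.

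The ribosomal centring turned the medians of 21 of 47 lists, all from below 0. Among them were ribosomal proteins (to 0.01), oxidative phosphorylation (0.09), the unfolded protein response (0.01), aldehyde metabolism (0.1), apoptosis (0.04) and colonocyte markers (0.0). Of the 333 named genes that were checked, 43 changed sign, and 20 of these had been called: Aldh2 0.05, Ankrd37 0.06, Dusp8 0.09, Fn1 0.02, Il1r1 0.07, Jund 0.07, Lipe 0.1, Nsdhl 0.1, Pkm 0.1, Pparg 0.09, Psma1 0.06, Psma4 0.1, Psmb2 0.16, Psmc4 0.04, Psmd3 0.16, Psmd4 0.14, Psmd8 0.17, Reg3g 0.01, Trpm8 0.02 and Trpv1 0.03. Another 10 became called: B2m 0.29, Calr 0.22, Cdkn1a 0.29, Kif20a 0.28, Krt18 0.23, Pla2g2a 0.29, Psmd14 0.24, Retnlb 0.3, Socs1 0.26 and Spink4 0.3. The other 13, called on neither scale, were Cdk1, Cxcl10, Cxcl5, Gbp5, Gstm1, Il18, Il1rn, Il33, Nuf2, Psmd10, Rela, S100a8 and Tapbp. A further 33 kept their sign but lost the call: Actn3, Atf3, Bcl3, Cd8a, Cox7b, Dusp9, Gstp1, Hk2, Ikbkg, Il17c, Il18bp, Il23a, Lcn2, Mapk7, Mapk9, Mertk, Msln, Ndufa1, Ndufs3, Nfkb2, Nqo1, Nr4a3, Pdk1, Pfkl, Psmd2, Psmd9, Relb, Sdha, Slc26a3, Tapbpl, Tnc, Trpm4 and Trpm5. With the mean of its probes Trpm3 gave -0.02. Intensities near 65510 and under about 50 limit what the arrays can show, and the causes of other lost calls were not tested.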
